A study of Mus musculus with 8 samples.

Results

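In the WT DN3 library, 109 of 2885 cells carried the authors' cluster number 0 and 2146 carried cluster number 1. These 2255 cells, of 10237 in the whole series, are set against each other here, first inside the WT library and then with the same clusters of the KI DN3 library, where 2415 of 3298 cells were in cluster 0 and 54 in cluster 1. Cluster 0 thus held 73.2% of KI DN3 cells and 3.78% of WT DN3 cells, and cluster 1 held 1.64% of KI DN3 cells and 74.4% of WT DN3 cells. Members were taken from the deposited table of cells by library and cluster number. Both clusters of a comparison came from 1 library, so cells of different libraries were not set against each other in it. The cluster numbers are shared by both libraries and nearly follow them, so the choice of groups was not independent of the library.

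The series measured 5′ single-cell gene expression and T cell receptor sequence in sorted thymocytes, with 1 library of each kind per genotype and stage. The KI mice carried the knock-in GSK3B Ser389Ala, and the WT mice were C57BL/6J. GSK3B, the kinase glycogen synthase kinase 3β, is changed at a single residue in the KI, so the level of its mRNA does not check the label: Gsk3b was at 117 CPM (UMIs scaled to a total of 1000000 for the group) in KI cluster 0 and 106 CPM in KI cluster 1, and at 107 CPM in WT cluster 0 and 136 CPM in WT cluster 1. CD4-negative CD8-negative thymocytes of both genotypes were enriched by magnetic depletion, and DN3 cells were then sorted as CD44-negative and CD25-positive. The age and number of the mice behind each library are not given in the sources used here.

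DN3 thymocytes rearrange the gene of the T cell receptor β chain with the recombinase RAG1-RAG2. A cell whose rearrangement yields a working β chain pairs it with the invariant pre-Tα chain, and the signal of this pre-T cell receptor (β-selection) drives division and the step to DN4. Type I and type III interferons induce a set of antiviral genes, many of which carry the interferon-stimulated response element in their promoters.

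How the authors made the clusters is not given in the sources used here; clusters of such data rest on the gene counts that are compared here, and each genotype has 1 library, so the values are a description with no test. Brackets after a ratio give the 95% interval of counting error (exact conditional binomial), which does not cover the spread between mice. A log2 ratio is always that of CPM, cluster 0 over cluster 1, unless another ratio is named. Genes were counted as apart where the CPM differed at least 2-fold and reached 50 CPM in either cluster. Depth differed most in the WT comparison. KI cluster 0 held 12262998 UMIs and KI cluster 1 held 273770, and WT cluster 0 held 374240 UMIs and WT cluster 1 held 12445911. The median cell had 4865 UMIs in KI cluster 0 and 4759.5 in KI cluster 1, and 2992 in WT cluster 0 and 5524.5 in WT cluster 1. Of the 109 cells of WT cluster 0, 20 had fewer than 2000 UMIs, against 1 of the 2146 cells of WT cluster 1. Median mitochondrial shares of UMIs lay between 2.78% and 3.09% in the 4 groups, and 92.6% to 96.7% of their cells had the authors' phase call G1. Doublets were called in 1 cell of KI cluster 0 and in none of the other 3 groups. Cell barcodes that also occur in another library numbered 34 in KI cluster 0, 0 in KI cluster 1, 1 in WT cluster 0 and 25 in WT cluster 1.

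**Figure D1:**
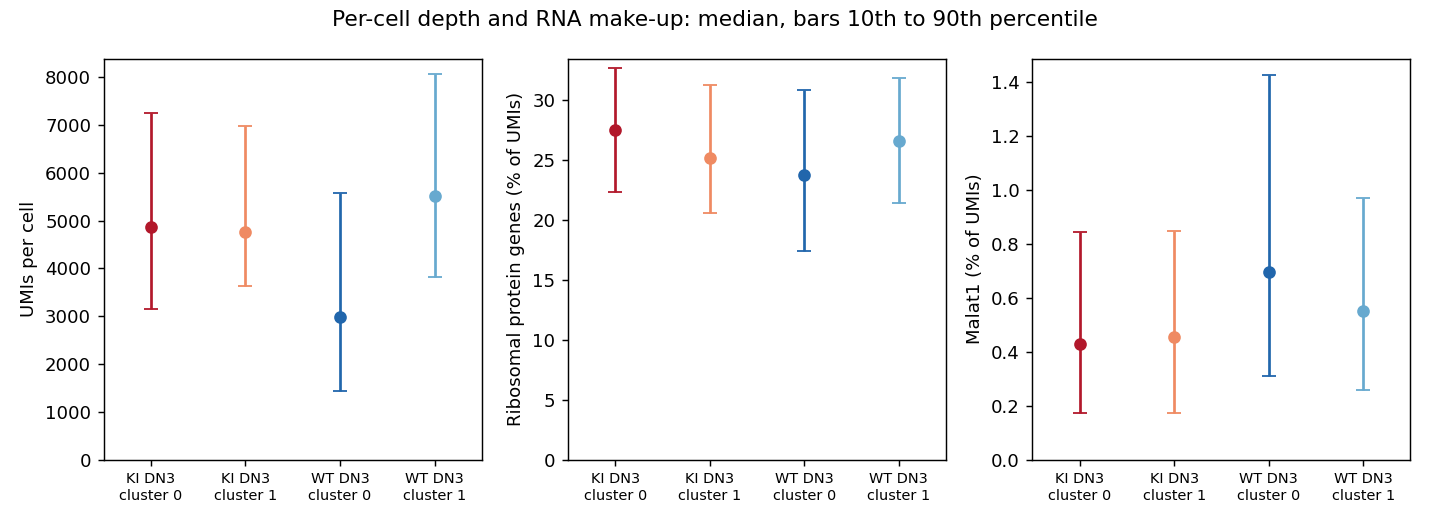
UMIs per cell, ribosomal protein genes as a percentage of UMIs, and Malat1 as a percentage of UMIs in the 4 groups of cells; points are medians over cells and bars run from the 10th to the 90th percentile. WT cluster 0 has the lowest median depth, 2992 UMIs, and the highest median Malat1 share, 0.698%.

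Both clusters carried the genes of DN3 cells before β-selection. In WT cluster 0, Il2ra (CD25, the sort marker) was at 572 CPM, Ptcra (pre-Tα) at 737 CPM, Dntt (terminal transferase) at 2079 CPM and Notch1 at 347 CPM. In WT cluster 1, Il2ra was at 659.9 CPM, Ptcra at 625 CPM, Dntt at 2138 CPM and Notch1 at 326 CPM. In the KI library Il2ra was at 643 CPM in cluster 0 and 789 CPM in cluster 1, and Ptcra at 621 CPM in cluster 0 and 661 CPM in cluster 1. Of 14 genes of this list, 10 reached 50 CPM in WT and 1 was at least 2-fold apart. That gene was Rag2, a subunit of the recombinase, at 64.1 CPM in WT cluster 0 against 32.1 CPM in WT cluster 1 (interval of the log2 ratio 0.34 to 1.59); its partner Rag1 was at 235 against 154 CPM (0.61, 0.29 to 0.92). Rag2 only just passed 2-fold, and was below it with cells weighted equally (0.70), among cells called G1 (0.96) and with scaling by a trimmed mean (0.91) or to a total without ribosomal protein and mitochondrial genes (0.95). It reached 50 CPM in WT through cluster 0 alone, so it had to be higher there. In the KI library Rag2 was at 30.6 against 40.2 CPM and Rag1 at 178 against 179 CPM. Markers of most other lineages were low. Early DN2 progenitor genes summed to 35.9 and 18.3 CPM in KI clusters 0 and 1 and to 34.7 and 33.7 CPM in WT clusters 0 and 1, B cell genes to between 231 and 268 CPM in the 4 groups, myeloid and dendritic genes to between 194 and 211 CPM, thymic stroma genes to between 259 and 349.8 CPM, and the erythroid and platelet genes were at 0 in all 4. The list of NK and innate lymphoid genes summed to 283 CPM in KI cluster 0 and 676 CPM in KI cluster 1, and to 297 CPM in WT cluster 0 and 430.0 CPM in WT cluster 1, with Gzma, described below, as its most abundant member. The γδ T cell list summed to 1746 and 1815 CPM in KI clusters 0 and 1, and to 1991 and 2287 CPM in WT clusters 0 and 1.

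Few genes separated the clusters inside the WT library. Of 3443 genes that reached 50 CPM in one cluster or both, 16 (0.465%) were at least 2-fold higher in cluster 0 and 12 (0.349%) at least 2-fold lower, 28 (0.813%) in all, and the median log2 ratio over all 3443 was 0.06. With every cell thinned to 2000 UMIs, 76 (2.08%) were higher and 61 (1.67%) lower, 3.75% in all, on fewer counts per gene. Only 1 gene on each side reached 100 CPM in either cluster: H1f0, which encodes a linker histone, at 144 against 63.9 CPM (1.18, 0.75 to 1.57), and the interferon-induced Isg15, described with its list below. H1f0, Ccl4 and Rps27rt were picked out after their values were seen. H1f0 was at 0.59 after thinning. The 16 higher genes rested on 19 to 54 UMIs each in cluster 0, and the 12 lower genes on 7 to 26. The largest ratios were those of Pitpnm1, a phosphatidylinositol transfer protein gene, at 50.8 against 16.1 CPM (1.66, 0.90 to 2.34), and Olfr1507, an odorant receptor gene, at 56.1 against 18.4 CPM (1.61, 0.89 to 2.26). Both were also higher once every cell was reduced to 2000 UMIs (2.11 and 1.12), which draws from the same UMIs and is no separate result. Pitpnm1, Olfr1507, Ddit4, A930003A15Rik, Zbtb2 and Ccl4 reached 50 CPM through cluster 0 alone, so they had to be higher there. Ddit4, a stress-induced inhibitor of mTORC1, was at 90.9 against 35.5 CPM (1.36, 0.81 to 1.86), and 1.08 after thinning. The long noncoding RNA A930003A15Rik was at 53.4 against 19.8 CPM (1.43) and Zbtb2, a zinc finger gene, at 50.8 against 20.6 CPM (1.30, and 0.75 after thinning). The chemokine gene Ccl4 was at 98.9 against 47.4 CPM (1.06, 0.54 to 1.54), and 0.46 after thinning.

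Receptor β variable segments appeared on both sides of the WT comparison. Trbv12-1 was at 61.5 CPM in cluster 0 against 20.2 CPM in cluster 1 (1.60, 0.92 to 2.22), but its 23 UMIs in cluster 0 came from 6 cells, and 1 cell held 30.4% of them. Its neighbour Trbv12-2 was at 18.7 against 51.4 CPM (−1.46, −2.78 to −0.41), on 7 UMIs. Near-identical segments can share reads, which makes the level of any one segment uncertain. The lowest ratio in WT was that of Hypk, a chaperone gene of the N-terminal acetylation complex, at 21.4 against 65.5 CPM (−1.62, −2.83 to −0.63), and −1.31 after thinning. The ribosomal protein gene copy Rps27rt was at 32.1 against 76.2 CPM (−1.25, −2.21 to −0.44). Each gene named in this paragraph reached 50 CPM only in the cluster where it was higher, which fixed its side. None of the 28 genes at least 2-fold apart in WT was at least 2-fold apart the other way in KI. Over all genes at 50 CPM in KI, 3.55% were at least 2-fold apart either way, so this count is near that share.

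The remaining differences in WT were small shifts shared by many genes of a kind. Ribosomal protein genes summed to 246761 CPM in cluster 0 against 272148 CPM in cluster 1, and 75 of the 81 with at least 50 CPM were below 0, with a median log2 ratio of −0.16. Genes of ribosome biogenesis moved further: 14 of 15 were below 0, with a median of −0.29. Fbl (fibrillarin, a nucleolar RNA methyltransferase) was at 182 against 295 CPM (−0.70, −1.07 to −0.35) and Nolc1 (a nucleolar phosphoprotein) at 64.1 against 99.2 CPM (−0.63, −1.28 to −0.05). Translation factors followed, 16 of 20 below 0 with a median of −0.10. The multifunctional nucleolar protein gene Npm1 was at 999 against 1372 CPM (−0.46, −0.61 to −0.31) and Rack1, a ribosome-bound scaffold, at 1416 against 1809.8 CPM (−0.35, −0.48 to −0.23). Of the 4 nuclear-retained RNAs with at least 50 CPM, 3 were higher in cluster 0 and Xist was lower, at 812 against 934 CPM (−0.20, −0.37 to −0.04). Malat1 was at 7265 CPM in cluster 0 against 5587 CPM in cluster 1 (0.38, 0.32 to 0.43). Gm42418, a predicted gene that overlaps ribosomal RNA sequence, was at 11329.6 against 7081 CPM (0.68, 0.63 to 0.72), and Gm26917 was at 342 against 217 CPM (0.66, 0.39 to 0.91). After thinning to 2000 UMIs the medians of the same genes were −0.20 for ribosomal protein genes, −0.29 for ribosome biogenesis and 0.44 for the nuclear RNAs. With 4000 UMIs per cell, which leaves 34 cells of WT cluster 0, the ribosomal protein median was −0.03, that of ribosome biogenesis −0.18 and that of the nuclear RNAs 0.40, and Malat1 was at 0.03. Among cells of 2000 to 4000 UMIs the median was −0.08 for ribosomal protein genes, −0.35 for ribosome biogenesis and 0.16 for the nuclear RNAs.

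In the KI library the shift of ribosomal protein genes ran the other way, but that of ribosome biogenesis genes did not. Of 14 ribosome biogenesis genes at 50 CPM, 6 were above and 8 below 0 in KI, with a median of −0.08. Ribosomal protein genes summed to 281524 CPM in cluster 0 against 259893 CPM in cluster 1, and 68 of 78 were above 0 with a median of 0.10. Gm42418 was at 7906 against 11652 CPM (−0.56, −0.61 to −0.51). Malat1 was at 4414 against 4654 CPM (−0.08, −0.16 to 0.00), and 0.01 after thinning to 2000 UMIs. Here the depth of the 2 groups was alike. In both libraries the cluster that held most of the library's cells had the higher ribosomal protein share and the lower Gm42418 level. Malat1 was also lower there in WT, while in KI its interval reached 0.

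**Figure D2:**
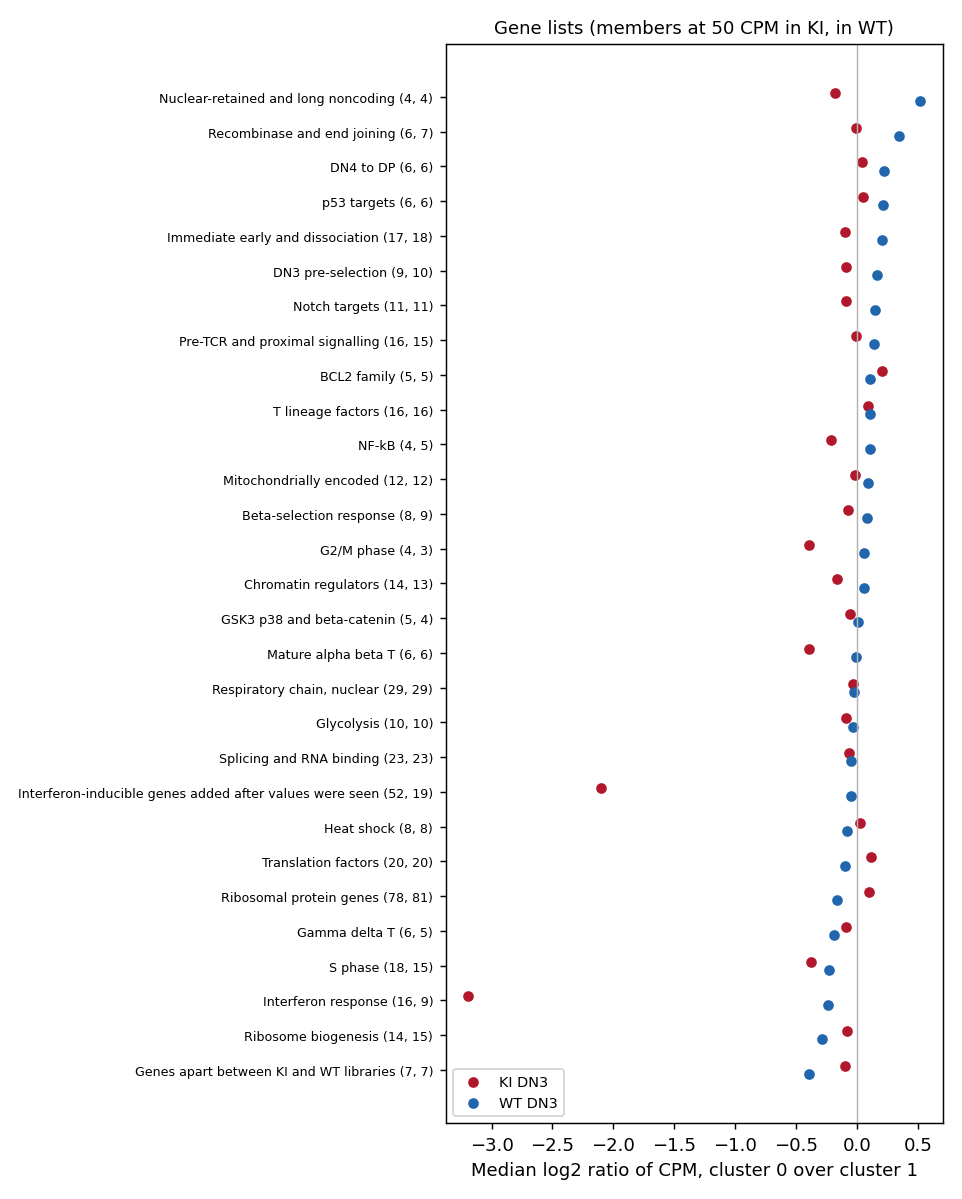
Median log2 ratio of CPM, cluster 0 over cluster 1, for each gene list with at least 3 members at 50 CPM in both libraries; upper red points are KI DN3, lower blue points WT DN3, and the brackets give the number of members in KI and in WT. The interferon response list stands at −3.19 in KI and −0.24 in WT; the list of interferon-inducible genes at the foot of the middle group was assembled after values were seen.

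Signalling and stage genes differed by little. In WT, 12 of 15 genes of pre-T cell receptor and proximal signalling were above 0, with a median of 0.14. Lat, the adaptor that links receptor kinases to downstream enzymes, was at 2306 against 1891 CPM (0.29, 0.19 to 0.38), and Lck, the proximal kinase, at 2202 against 1825 CPM (0.27, 0.17 to 0.37). The Notch target Dtx1 was at 126 against 194 CPM in KI (−0.62, −1.01 to −0.19), and at 163 against 111 CPM in WT (0.55, 0.16 to 0.93). Genes of the β-selection response split evenly, 5 above and 4 below 0 in WT: the amino acid transporter subunits Slc7a5 and Slc3a2 were at 305 against 231 CPM (0.40) and at 163 against 260.5 CPM (−0.68). Of the S phase genes 15 of 18 were below 0 in KI (median −0.38) and 11 of 15 in WT (median −0.23), although the KI median was 0.07 among cells called G1 and 0.62 among cells of 2000 to 4000 UMIs, and the WT median was 0.03 among cells of 2000 to 4000 UMIs. Ccnd2, which encodes the G1 cyclin D2, was at 218 against 405 CPM in KI (−0.90, −1.17 to −0.61) and at 160.3 against 224 CPM in WT (−0.49, −0.88 to −0.12). After thinning to 2000 UMIs its ratio was −0.90 in KI but only −0.09 in WT.

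The genes of the interferon response set the clusters of the KI library apart, and a few of them those of the WT library. The motif of the interferon-stimulated response element is shown first, because its letters occur in the promoters of several of these genes. In RefSeq promoters (GRCm38.p6), the letters GAAA, 2 bases of any kind and GAAA were searched on both strands in the 250 bases before each start site, overlapping matches included; windows with 30 bases on each side, cut at the start site, are printed on the strand of the gene with matches in capitals (TTTC, 2 bases and TTTC where it lies on the other strand). The windows surround the match nearest to the start site, and every match inside a window is in capitals. The promoter of Isg15 holds 3 matches, those of Ifit1 and Ifit3 hold 2 each, and those of Rsad2 and Ifi203 hold 1 each; 1 of the matches of Ifit3 lies outside its window. The window of Isg15, which encodes a ubiquitin-like modifier, is chr4:156200845-156200914 (minus strand); Ifit1 and Ifit3, which encode RNA-binding antiviral proteins, have the windows chr19:34640774-34640843 and chr19:34583377-34583446 (plus strand); Rsad2, which encodes viperin, has chr12:26456533-26456602 (minus strand); and Ifi203, of the DNA-sensing PYHIN family, has chr1:173942493-173942557 (minus strand).
Isg15: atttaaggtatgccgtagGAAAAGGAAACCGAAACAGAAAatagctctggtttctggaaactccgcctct
Ifit1: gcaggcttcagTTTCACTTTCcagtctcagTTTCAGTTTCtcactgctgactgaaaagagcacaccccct
Ifit3: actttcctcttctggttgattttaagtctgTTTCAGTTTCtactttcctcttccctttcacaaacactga
Rsad2: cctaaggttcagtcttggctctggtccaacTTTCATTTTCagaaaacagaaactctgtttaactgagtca
Ifi203: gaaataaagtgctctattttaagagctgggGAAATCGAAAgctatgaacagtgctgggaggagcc
The motif was in 978 of 32851 promoters of the table (2.98%), in 105 of the 2777 genes with at least 50 CPM in KI that have a promoter there (3.78%), and in 7 of 13 genes of the interferon response list (53.8%). No match was found within this window for Irf7 or Oasl2.

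In the KI library, cluster 0 was far lower than cluster 1 in this response. Isg15 was at 81.1 CPM in cluster 0 against 1658 CPM in cluster 1 (−4.35, −4.52 to −4.19). Irf7, the transcription factor that amplifies the response, was at 23.2 against 398 CPM (−4.10, −4.42 to −3.77). Ifit1 was at 3.26 against 471 CPM (−7.17, −7.72 to −6.65). Its neighbour Ifit3 had 1 UMI in cluster 0 and 48 in cluster 1 (−11.07, −16.40 to −8.52). All 20 genes of the list were lower in cluster 0, at any level of expression, and their UMIs together came to 1154 CPM against 6714 CPM (−2.54, −2.61 to −2.47). Of the 20, 16 reached 50 CPM in either cluster, only 4 of them in cluster 0, and all 16 were at least 2-fold lower. Genes that reached 50 CPM through cluster 1 alone had to be lower in cluster 0. Over all 3497 genes at this level 104 (2.97%) were at least 2-fold lower and 20 (0.572%) higher, 3.55% in all, with a median log2 ratio of −0.03.

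Regulators and effectors of the response were among them. Of the transcription factors, Irf9, which binds the response element, was at 34.0 CPM in KI cluster 0 against 124 CPM in KI cluster 1 (−1.87, −2.37 to −1.32). Of the antiviral effectors, the GTPase gene Mx1 was at 0.571 against 91.3 CPM (−7.32) and Oasl2, of the oligoadenylate synthetase family, at 7.09 against 259 CPM (−5.19). Usp18, the protease that removes ISG15 and dampens the receptor, was at 7.09 against 329 CPM (−5.53). Bst2 (tetherin), which all groups expressed, differed least at 622 against 1297 CPM (−1.06, −1.21 to −0.90). Chosen after their values were seen, Rsad2 was at 4.32 against 321 CPM (−6.22) and Ifitm3, an entry inhibitor, at 10.7 against 339.7 CPM (−4.99). Of the 104 lower genes, 16 were in the list. A further 52, noted as interferon-inducible after the values were seen, were all among the 104. Their number was fixed by that choice and is no separate result. Of the class I histocompatibility genes, H2-T22 at 134 against 278 CPM (−1.06) and H2-M3 at 25.1 against 54.8 CPM (−1.13) were at least 2-fold lower. The more abundant ones differed by less, H2-K1 at 497 against 782 CPM (−0.65), H2-D1 at 742 against 983 CPM (−0.40) and B2m at 1834 against 2389 CPM (−0.38).

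The 454 UMIs of Isg15 were spread over 43 of the 54 cells of KI cluster 1, and the cell with the most held 13.7% of them. For Ifit1 that share was 10.9%, for Ifit3 29.2%, for Ifitm3 30.1%, for Irf7 33.0% and for Ly6a, a surface antigen gene, 52.8%. Outside the interferon genes, 33.1% of the UMIs of the granzyme gene Gzma in cluster 1 came from 1 cell, and 14 of the 17 UMIs of Trbv3 from 1 cell, which carried a TRBV3 chain in the receptor library. Gzma was at 143 against 529.6 CPM in KI (−1.89) and at 166 against 260.1 CPM in WT (−0.65). Genes that were higher in KI cluster 0 rested on few UMIs, 5 to 12 each in cluster 1, and none reached 100 CPM; the highest ratios, named after the values were seen, were those of Thyn1 (55.5 against 18.3 CPM, 1.60) and Stat5b (51.4 against 18.3 CPM, 1.49). After thinning to 2000 UMIs, 132 genes (3.63%) were higher and 233 (6.41%) lower in KI cluster 0, 10% in all, and the interferon median was −3.11 against −3.19 before.

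In the WT library 4 genes of the interferon list were at least 2-fold lower in cluster 0. Isg15 was at 69.5 CPM in cluster 0 against 184 CPM in cluster 1 (−1.41, −2.03 to −0.85), Irf7 at 21.4 against 56.4 CPM (−1.40, −2.62 to −0.41), Rtp4, which encodes a receptor-transporter protein, at 21.4 against 58.2 CPM (−1.44, −2.66 to −0.46) and Ifi203 at 29.4 against 76.7 CPM (−1.38, −2.39 to −0.54). Apart from Isg15, they reached 50 CPM through cluster 1 alone and rested on 8 to 11 UMIs in cluster 0. After thinning to 2000 UMIs, Isg15 (−1.28) and Rtp4 (−1.42) were still at least 2-fold lower, whereas Ifi203 (−0.92) and Irf7, just short of 2-fold, were not. With 100 CPM in either cluster only Isg15 was left. Below 50 CPM in both clusters, and on few UMIs, Ly6a was at 13.4 against 30.9 CPM (−1.21, −2.84 to 0.02) and Oasl2 at 10.7 against 22.3 CPM (−1.06, −2.95 to 0.31). The list's median was −0.24 with 50 CPM in either cluster, −0.13 with 100 CPM and −0.99 with 20 CPM. Ly6a and Oasl2 reached 20 CPM through cluster 1 alone, so at that filter they had to be lower in cluster 0. Other members lay on both sides of 0, among them Rnf213, lower at 21.4 against 42.3 CPM (−0.99). Over the 19 genes with a ratio at any level 12 were below and 7 above 0, with Irf9 at 58.8 against 41.5 CPM (0.50, −0.19 to 1.115) and Ifit1 at 13.4 against 14.0 CPM (−0.07). Irf9 reached 50 CPM through cluster 0 alone, which fixed its side at that filter. The summed list was at 1355 CPM in cluster 0 against 1663 CPM in cluster 1 (−0.30, −0.43 to −0.17), and the 52 further interferon-inducible genes at 2066 against 2173 CPM (−0.07, −0.18 to 0.03).

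These 4 genes were the only ones at least 2-fold apart the same way in both libraries, 33.3% of the 12 lower genes of WT and 3.85% of the 104 lower genes of KI, and no gene was higher in both. Over all genes at 50 CPM, 0.465% were higher and 0.349% lower in WT, and 0.572% higher and 2.97% lower in KI. Across the 3149 genes with at least 50 CPM in both libraries the log2 ratios of KI and WT had a Pearson correlation of 0.03 and a Spearman correlation of −0.04, given as a description across genes, which share library and depth. Of these genes, 9 were higher and 14 lower in cluster 0 in both libraries with intervals clear of 0. The number pointing opposite ways was not counted, and agreement beyond chance was not tested. Smaller differences that pointed the same way with intervals clear of 0 in both libraries included, on the higher side, the T cell transcription factor gene Tcf7 (587 against 431 CPM in KI, 673 against 563 CPM in WT), the small GTPase gene Arl5c (329 against 234 CPM in KI, 499.7 against 335 CPM in WT) and the kinase gene Stk4 (70.5 against 32.9 CPM in KI, 104 against 67.3 CPM in WT). On the lower side were Plac8 (687 against 1311 CPM in KI, 681 against 833 CPM in WT), the splicing factor gene Srsf3 (274 against 351 CPM in KI, 273 against 431 CPM in WT) and the histone chaperone gene Rbbp7 (153 against 216 CPM in KI, 107 against 173 CPM in WT). Others of this kind were Becn1, Fau, H2afx, Lars2 and Usp3 on the higher side and Mcm6 and Tnfaip8, with the genes already given, on the lower.

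**Figure D3:**
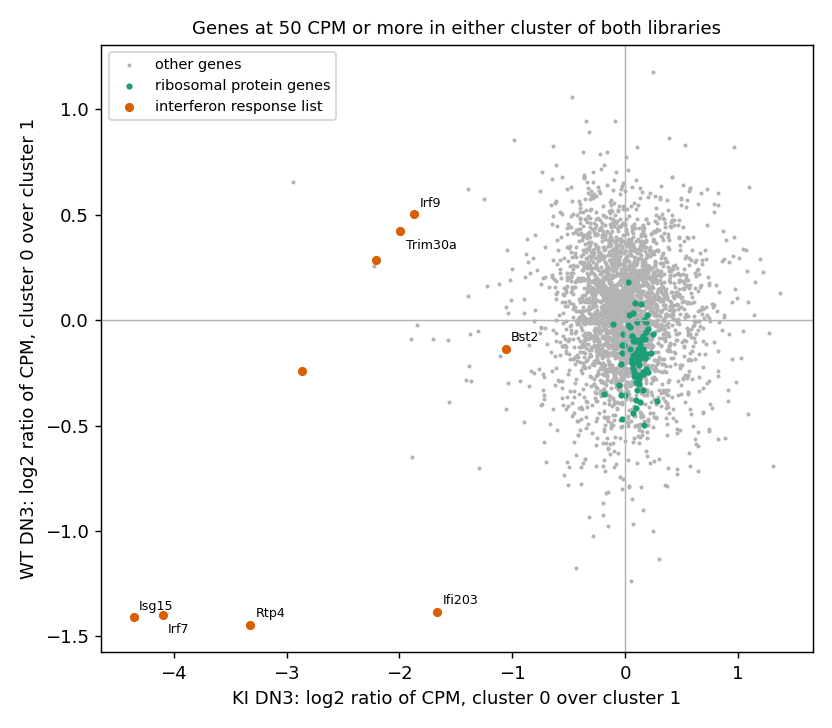
Log2 ratio of CPM, cluster 0 over cluster 1, in KI DN3 (x axis) and WT DN3 (y axis) for the 3149 genes with at least 50 CPM in either cluster of both libraries; orange points are the interferon response list and green points ribosomal protein genes. Isg15, Irf7, Rtp4 and Ifi203 lie low in both libraries, and Irf9 and Trim30a are low in KI and above 0 in WT. The WT interval of Irf9 spans 0.

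Per cell, the interferon response list was compared after every cell was thinned to 2000 UMIs. The median cell held 2 UMIs of the list in KI cluster 0 and 9.5 in KI cluster 1, and 2 in WT cluster 0 and 3 in WT cluster 1. At least 8 UMIs, a bound set after the values were seen, were found in 36 of 2378 cells of KI cluster 0 (1.51%, exact binomial 95% interval 1.06 to 2.09%) and in 34 of 54 cells of KI cluster 1 (63.0%, 48.7 to 75.7%). In WT they were found in 3 of 89 cells of cluster 0 (3.37%, 0.701 to 9.54%) and in 156 of 2145 cells of cluster 1 (7.27%, 6.21 to 8.45%). The count is a range and no cell type: 130, 10, 8 and 209 cells of KI clusters 0 and 1 and WT clusters 0 and 1 held 6 to 9 UMIs. Unthinned, the median was 10.4 per 10000 UMIs in KI cluster 0, 48.3 in KI cluster 1, 11.6 in WT cluster 0 and 12.9 in WT cluster 1.

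**Figure D4:**
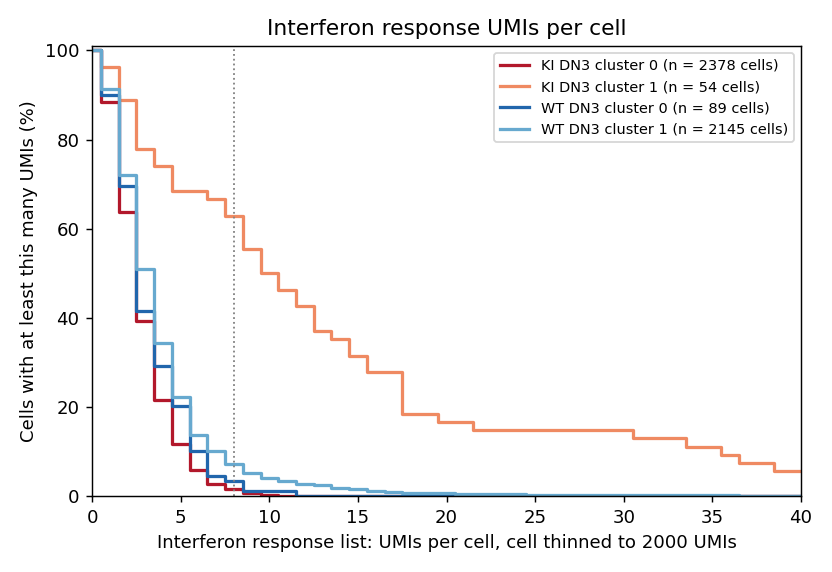
Percentage of cells (y axis) with at least the given number of UMIs of the interferon response list (x axis, shown to 40), after thinning every cell to 2000 UMIs; the dotted line marks 8 UMIs. KI cluster 1 stands apart with 63.0% of its cells at or beyond the line, against 1.51% of KI cluster 0, 3.37% of WT cluster 0 and 7.27% of WT cluster 1.

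Genes that differ between the DN3 libraries were compared within each cluster. Among all genes at 50 CPM, KI cluster 0 had 0.375% at least 2-fold higher and 0.866% lower than WT cluster 0 (1.24% in all), and KI cluster 1 had 2.9% higher and 1.4% lower than WT cluster 1 (4.3% in all). The 20 genes listed here were chosen because they differ between the whole libraries, which include these cells, so their direction is largely fixed by that choice and their levels are given as a description. Intervals of several of them, Ptgs2, Hist1h2ac, Sys1 and Dynlt1f among them, spanned 0 in both clusters. Cd96, a receptor of the immunoglobulin superfamily, was at 2.61 CPM in KI cluster 0 and 0 in KI cluster 1, against 48.1 CPM in WT cluster 0 and 79.9 CPM in WT cluster 1. It was 18.4-fold lower in KI cluster 0 than in WT cluster 0, and at least 7.29-fold lower in KI cluster 1 than in WT cluster 1, taking a floor of 3 counts over the cells of KI cluster 1 (10.96 CPM). Junb, a member of the AP-1 family, was at 2396 and 2561 CPM in KI clusters 0 and 1, against 4462 and 4621 CPM in WT clusters 0 and 1. Apobec3, a cytidine deaminase gene, was at 44.8 and 62.1 CPM in the KI clusters, against 147 and 201 CPM in the WT clusters. Nme1, a nucleoside diphosphate kinase gene, was higher in KI, at 127 and 98.6 CPM against 45.4 and 62.7 CPM.

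**Figure D5:**
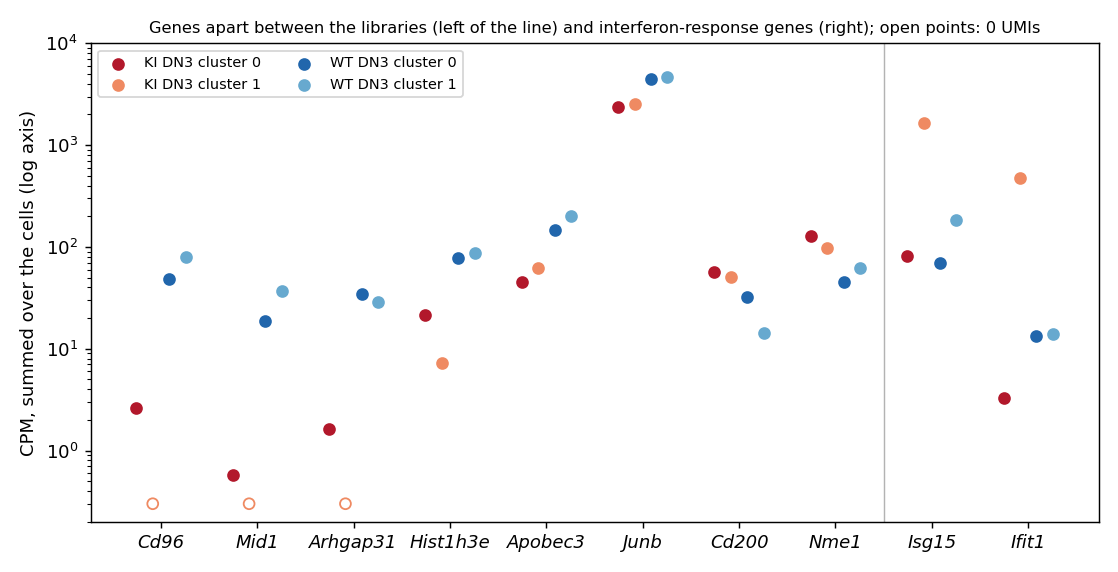
CPM (log axis) of 8 genes that differ between the KI and WT DN3 libraries, left of the line, and of Isg15 and Ifit1, right of the line, in the 4 groups; open points mark 0 UMIs and are placed near the foot of the axis. Cd96 is at 2.61 and 0 CPM in the KI clusters and at 48.1 and 79.9 CPM in the WT clusters, while Isg15 is highest in KI cluster 1, at 1658 CPM.

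The receptor libraries are a separate readout of the same cells, joined by cell barcode. A productive β chain was found for 116 of 2415 cells of KI cluster 0 (4.80%, exact binomial 95% interval 3.99 to 5.73%) and 2 of 54 of KI cluster 1 (3.70%, 0.452 to 12.7%), and for 4 of 109 cells of WT cluster 0 (3.67%, 1.01 to 9.13%) and 151 of 2146 of WT cluster 1 (7.04%, 5.99 to 8.20%). Among cells with at least 4000 UMIs the WT shares were 0 of 34 in cluster 0, with an upper bound of 10.3%, and 135 of 1884 in cluster 1 (7.17%). In cluster 6 of the same libraries the share was 68.3% in KI and 71.2% in WT, at median depths of 9200.5 and 10962 UMIs. Barcodes of these cells met a β chain of another receptor library in 0.497% of KI cluster 0, 0% of KI cluster 1, 0.917% of WT cluster 0 and 0.373% of WT cluster 1, which measures chance matches of barcodes. In the 4 groups, the only cells with a contig of any kind were those with a productive β chain. None of these had an α chain, and the other cells gave no information on it. The 4 β chains of WT cluster 0 are printed as their CDR3, the loop that spans the joint of V, D and J segments on chromosome 6, to show that they are 4 different joins.
TRBV20 to TRBJ1-2: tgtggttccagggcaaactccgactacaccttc
TRBV12-1 to TRBJ2-3: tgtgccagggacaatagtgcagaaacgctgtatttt
TRBV20 to TRBJ1-6: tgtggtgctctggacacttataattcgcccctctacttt
TRBV10 to TRBJ2-1: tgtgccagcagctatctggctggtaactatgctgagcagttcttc
Each was found in 1 cell of the whole series, with 4 to 10 UMIs of the contig. All 4 cells also held a nonproductive β chain. No cell of WT cluster 0 held 2 productive β chains, against 7 of 2146 in WT cluster 1.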

How the data were processed

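Per the labels, 5′ single-cell expression and receptor libraries were made from sorted DN3 and DN4 thymocytes. The authors deposited raw UMI counts of 15653 genes in 10237 cells, with no normalisation, and a table with each cell's library, cluster number and phase; the method of either call is not given in the sources used here. Cell Ranger, in versions 3.1.0 and 6.0.1, and build mm10 are named per the submitters' processing notes. Per the file headers, the deposited contig tables hold UMI counts per receptor contig; the clonotype tables were not used here. DN4 cells of clusters 0 and 1, 7 and 7 in KI and 4 and 2 in WT, were not analysed here.

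UMI counts were summed over the cells of each library and cluster and divided by the sum (CPM). The ratio of CPM has an exact conditional binomial interval at 95%. Genes needed 50 CPM in either cluster, calls were 2-fold, and a group at 0 was given a floor of 3 counts. Cells were not treated as replicates and no test was made. Thinning drew 2000 UMIs per cell without replacement and left out 37 cells of KI cluster 0, 0 of KI cluster 1, 20 of WT cluster 0 and 1 of WT cluster 1. No cell was removed otherwise. Doublets were called per library with Scrublet (scanpy 1.11.5) and left in; its rates, 0.121% in KI DN3 and 0.0693% in WT DN3, are too low to be relied on. Shares have Clopper-Pearson intervals. All intervals cover counting error only.

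The members and the gene lists were chosen with earlier results of these data known. Genes were named by rule: among genes at 50 CPM in both libraries with intervals excluding a ratio of 1 and the same sign in both, the 12 highest and 12 lowest by the smaller of the ratios; the 6 highest and 6 lowest in WT; up to 4 members of each list by their WT ratio; and the genes apart between the libraries. Other genes, among them further members of the DN3, interferon and class I histocompatibility lists, were named after their values were seen. Symbols were matched to GENCODE vM21 for 15474 of 15653 genes. The calculation was tested on simulated counts. Alternatives were other CPM filters, thinning depths, scalings, cell weights and sets of cells. Some genes are not reported here by name.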

Additional observations from a re-analysis of the deposited data

Results flagged for a closer look

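Of the lists, 7 had summed UMIs on opposite sides of 0 in the 2 libraries, with counting intervals clear of 0 in both. The difference between the libraries was not tested. The median log2 ratio over all genes at 50 CPM was itself on opposite sides, −0.03 in KI and 0.06 in WT. The smaller of the list values below lie close to it. Summed log2 ratios, cluster 0 over cluster 1, were −0.12 in KI and 0.09 in WT for the DN3 pre-selection genes, −0.08 in KI and 0.13 in WT for Notch targets, and −0.08 in KI and 0.17 in WT for pre-T cell receptor and proximal signalling. They were −0.12 in KI and 0.1 in WT for immediate early genes, and −0.37 in KI and 0.51 in WT for nuclear-retained and long noncoding RNAs, of which Gm42418 and Malat1 held most UMIs. They were 0.12 in KI and −0.14 in WT for translation factors, and 0.12 in KI and −0.14 in WT for ribosomal protein genes. The first 3 lists share Ptcra. The DN3 pre-selection and Notch lists also share at least Il2ra, Dtx1 and Notch3, so they are not separate results. The median of the immediate early list was 0.18 in KI and −0.20 in WT among cells of 2000 to 4000 UMIs, and that of the signalling list was 0.06 in KI with scaling by a trimmed mean. The nuclear RNAs had the widest gap, 13569 CPM in KI cluster 0 against 17526 in KI cluster 1, and 19829.5 CPM in WT cluster 0 against 13913 in WT cluster 1.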

How the results depend on the processing

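No paired analysis was possible because each group has 1 library. The counts of genes at least 2-fold apart depended on how many low genes entered. In the order KI higher, KI lower, WT higher, WT lower and the same way in both, they were 20, 104, 16, 12 and 4 as reported; 192, 264, 130, 127 and 12 with 20 CPM in either cluster; 0, 57, 1, 1 and 1 with 100 CPM; 584, 1134, 984, 486 and 79 with no filter; 132, 233, 76, 61 and 7 with cells thinned to 2000 UMIs; 86, 187, 128, 93 and 7 with cells thinned to 4000 UMIs; and, an alternative chosen after seeing the data, 310, 518, 114, 119 and 22 among cells of 2000 to 4000 UMIs. Scaling by a trimmed mean gave 10 WT higher genes. A total without ribosomal protein and mitochondrial genes gave 72 KI higher, 31 WT higher and 43 WT lower genes. With cells weighted equally 31 genes were higher in KI and 2, Ifi203 and Rtp4, stayed lower in both. Cells called G1 gave 35 KI higher genes. At least 4000 UMIs left 34 cells of WT cluster 0, of which 0% had a productive β chain. Dhrs4 in KI was at −0.30 after thinning to 2000 UMIs, and among KI cells of 2000 to 4000 UMIs Parp14 was at 0.77, Rnmt at −0.29 and Trim25 at 0.016; the cause was not tested. Leaving out cells with a shared barcode or called doublets moved no count by over 1.5 times. The interferon median ranged from −3.19 to −2.23 in KI and from −0.99 to −0.13 in WT over all settings, that of ribosomal protein genes from 0.06 to 0.17 in KI and from −0.26 to −0.03 in WT, that of the nuclear RNAs from −0.43 to −0.08 in KI and from 0.12 to 0.52 in WT, and Malat1 from −0.16 to 0.01 in KI and from 0.03 to 0.51 in WT. The 374240 UMIs of WT cluster 0 and 273770 of KI cluster 1 limit what can be seen: 3 counts are 8.02 and 10.96 CPM there.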
